A study of Mus musculus with 31 samples.

Results

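The genes described here are Ehbp1, Mppe1, Cela2a, Gm20877 and Rprd1b, which have 10 probes on a whole mouse genome array of 39429 probes and 20832 matched gene symbols. They were chosen by the size of the difference between the Cy5 and the Cy3 channel on the 6 arrays titled RV Mg, which hold MgSO4 in combination with neonatal hypoxia-ischemia (HI). The ratios of those arrays are therefore given below as a description, without a test. The other 25 arrays had no part in the choice, and tests of the members are given for them alone. Fits to the RV Mg arrays are used only for the share of all probes called and for genes that are not members.

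All 31 arrays carried RNA of 5-day-old NMRI mice, an outbred stock. The methods describe each sample as a pool from 6 ipsilateral hemispheres of sex-matched pups, whereas the supplement counts 3 hemispheres per replicate. The 19 Mg arrays compared pups given a single MgSO4 injection (600 mg/kg, Cy5) with control pups (Cy3), 7 of them after 6 h and 4 each after 3 h, 12 h and 24 h. RV PBS arrays compared HI, a ligature of the right carotid followed by hypoxia, with control pups at 3 h and at 12 h (3 arrays each). By the methods, RV Mg arrays set HI with MgSO4 given beforehand against HI without it at the same times (3 arrays each). Their titles name another comparison, MgSO4-treated HI against MgSO4-treated naive mice. For the injections the labels give the subcutaneous route and PBS controls, whereas the methods give the intraperitoneal route and controls without intervention. In RV PBS, one label of the Cy5 side gives MgSO4 as the treatment, against title, source and methods, and this side was taken as HI alone. In RV Mg the series text and the methods put the pretreated pups in Cy5, the label of channel 1 puts MgSO4-treated naive pups in Cy3, and the figures of the study put the pretreated pups in Cy3, so that RV Mg values are given by channel without naming the treatment behind it. No array had its dyes exchanged, and what a dye does to a probe cannot be told apart from what a treatment does.

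Ehbp1 (EH domain-binding protein 1) is an adaptor that links EHD and Rab8/Rab10 endocytic recycling to the actin cytoskeleton. Mppe1, also named Pgap5, is a metallophosphoesterase that trims the glycan of glycosylphosphatidylinositol (GPI) anchors, which lets GPI-anchored proteins leave the endoplasmic reticulum. Cela2a is a chymotrypsin-like elastase, a serine protease that the exocrine pancreas secretes. Rprd1b (also CREPT) binds the repeated C-terminal tail of RNA polymerase II and favours transcription of cell cycle genes such as Ccnd1. Gm20877 is a predicted gene of the Y chromosome with near-identical copies, so that its probes may report several copies.

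Ehbp1 and Rprd1b were the members whose spots were bright in both channels, and over the RV arrays, some of which chose them, the ratio of 1 Rprd1b probe ran against that of Ehbp1. Their promoters are printed for that reason, from 250 bases before to 50 bases after the gene start (RefSeq, GRCm38.p6). Capitals mark GC boxes, searched as GGGCGG on both strands.
Rprd1b promoter, chr2:158028247-158028546, plus strand: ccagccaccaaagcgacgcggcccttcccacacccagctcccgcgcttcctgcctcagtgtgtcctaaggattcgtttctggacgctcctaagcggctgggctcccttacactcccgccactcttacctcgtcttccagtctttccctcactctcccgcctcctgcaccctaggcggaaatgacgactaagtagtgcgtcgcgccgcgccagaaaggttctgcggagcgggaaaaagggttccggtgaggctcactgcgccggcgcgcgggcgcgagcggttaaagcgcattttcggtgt
Ehbp1 promoter, chr11:22286746-22287045, minus strand: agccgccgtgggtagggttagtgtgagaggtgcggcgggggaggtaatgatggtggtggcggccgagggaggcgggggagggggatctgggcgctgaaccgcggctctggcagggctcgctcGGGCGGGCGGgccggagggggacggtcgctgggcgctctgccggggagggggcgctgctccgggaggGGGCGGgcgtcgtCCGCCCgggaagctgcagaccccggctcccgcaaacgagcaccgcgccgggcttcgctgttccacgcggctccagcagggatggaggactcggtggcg
The Rprd1b window held 31 CpG dinucleotides and the Ehbp1 window 37, against a median of 7 over 32851 mouse promoters of the same length. The Ehbp1 window held 4 GC boxes, of which the first pair overlaps, and the Rprd1b window held none, while 35.7% of all promoters held at least 1. TATAAA, TGACGTCA and TGANTCA, the letters of a TATA box, a cAMP response element and an AP-1 site, were in neither window and in 13.6%, 1.79% and 7.81% of all promoters. These matches describe the letters and not a bound site.

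Signal over background takes the place of depth on these arrays. Per array, 45.2% to 69.7% of probes were well above background in Cy3 and 54.4% to 70.2% in Cy5, and 0% were saturated. Ratios of RV PBS and RV Mg arrays of the same group correlated between r = 0.22 and r = 0.70 over the probes above background. In the Mg 6 h group, replicates 3 and 7 correlated negatively with each of the other 5 (lowest r = -0.40), and the direction of these arrays follows the dyes that the methods state. Neuronal, astrocytic, oligodendroglial, microglial and endothelial markers (5, 4, 4, 4 and 3 genes) were above background in every group and channel, as the labelled tissue requires, and limma called no marker of these lists in any group. Blood (3 genes) and choroid plexus (3 genes) markers were detected too, with summed levels from 6.44 to 8.64 and from -0.12 to 7.13 on the log2 scale relative to the 75th percentile of the array, and their part in the results was not tested. The median ratio of the blood markers was -0.35, -0.38 and -0.51 at 6 h, 12 h and 24 h after MgSO4. Of the 3 genes, 1, 2 and 3 had an unadjusted p under 0.05 by limma, against 13.2%, 15.7% and 11.1% of all probes. Fos, an immediate early gene, was higher in HI than in control by 5.52 ± 0.37 (log2 ratio, SD, n = 3) at 3 h (limma, adjusted p = 0.0019). On RV Mg 3 h arrays its level was high in both channels, from 2.29 to 2.67 in Cy3 and from 2.25 to 3.36 in Cy5, against -2.94 to -2.65 in the control channel of RV PBS 3 h. Both channels of the RV Mg 3 h arrays thus carried the early injury response, and Fos does not tell which of them was pretreated. This differs from the titles and from the label of channel 1, which name naive pups on 1 side.

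On the RV Mg 3 h arrays, Cy5 exceeded Cy3 for Mppe1, Cela2a, Rprd1b probe A_52_P349298 and 1 of 5 probes of Gm20877. Cy3 exceeded Cy5 for Ehbp1 and, less strongly, for Rprd1b probe A_51_P229633 (mean -0.55). Ratios below are log2(Cy5/Cy3) per array in the order of the replicates. By its brightest probe, 4 of 5 genes had the same sign on all 3 arrays and a mean of 1 or more in size, where 1.99% of 19258 probes did. On RV Mg 12 h arrays 1 of 5 did (Mppe1), where 1.81% of 19269 probes did. Since these ratios selected the genes, nothing is read from the difference between those shares. By limma at an adjusted p under 0.05 with a fold change of 1.5, 7.62% of all probes were called on RV Mg 3 h arrays and 0% on RV Mg 12 h arrays, where 5132 had an unadjusted p under 0.05. Ranked by the size of the mean ratio at 3 h, Cela2a was 3, Ehbp1 4, Mppe1 6, a Gm20877 probe 7 and Rprd1b 46. The means just inside and just outside that end of the list were 1.55 for Rprd1b and 1.53 and 1.52 for Rerg and Bcl2l1. Peg10, with a mean of -2.77, Ambn with 2.70 and Pik3cd with 2.22 lay among the same ranks and are not members. At 12 h the ranks were 3 for Gm20877, 5 for Mppe1, 36 for Cela2a, 41 for Ehbp1 and 1797 for Rprd1b.

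**Figure D1:**
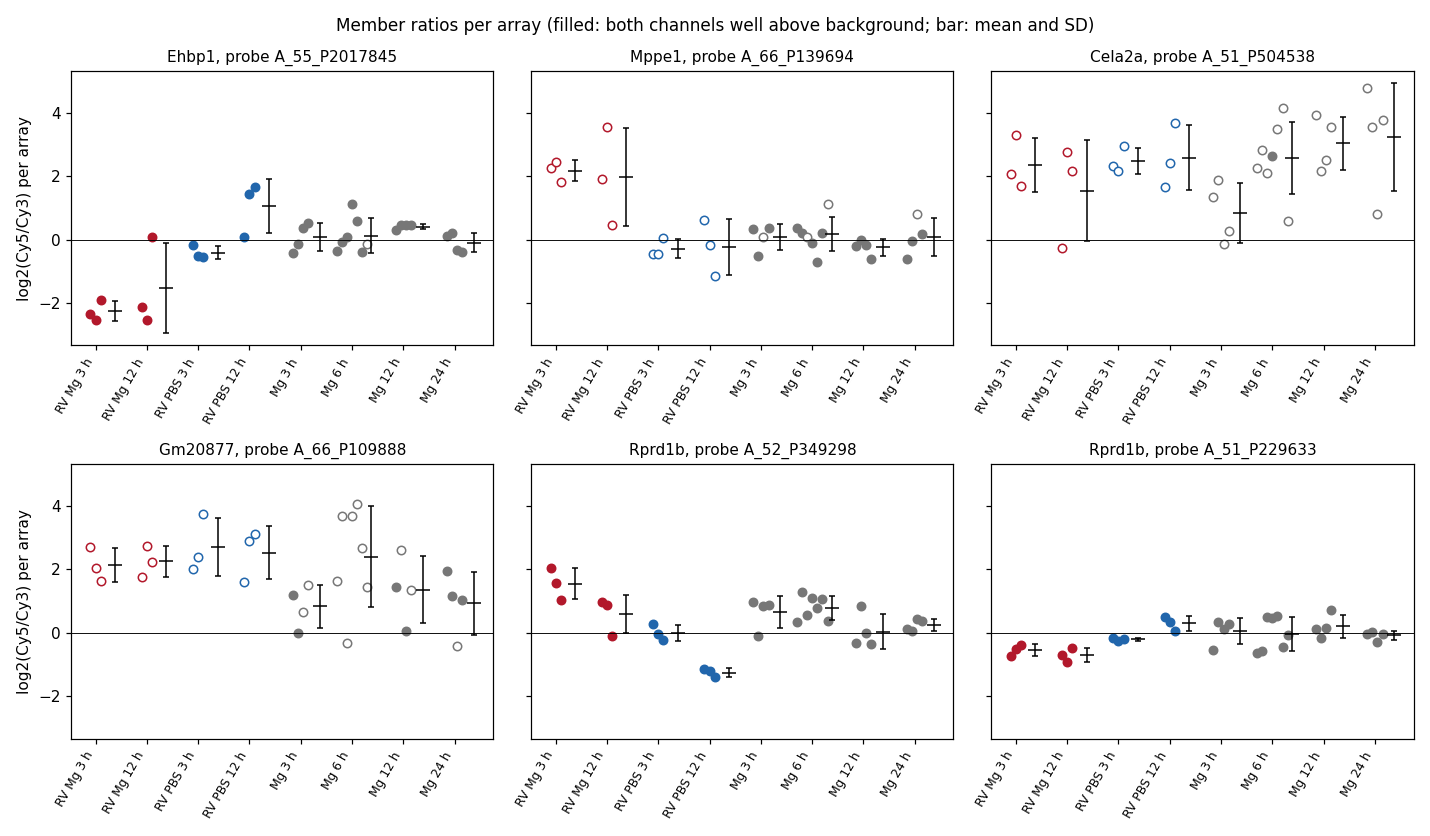
Log2(Cy5/Cy3) of 6 member probes (vertical axes) on each array of the 8 groups (horizontal axes), with filled points where both channels were well above background and bars for the mean and SD. Mppe1 had mean ratios far from 0 in RV Mg only, and Ehbp1 (1.07) and Rprd1b probe A_52_P349298 (-1.26) also in RV PBS 12 h with the sign opposite to RV Mg. The same Rprd1b probe had means of 0.65 in Mg 3 h and 0.79 in Mg 6 h, with the sign of RV Mg. As the treatment behind each RV Mg channel is not settled, these signs compare channels and not directions of a treatment effect. Cela2a and Gm20877 probe A_66_P109888 were above 0 in every group on average.

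Ehbp1 is represented by a single probe, A_55_P2017845, which was well above background on 30 of 31 arrays in Cy3 and on 31 in Cy5. Its ratios were -2.35, -2.53 and -1.91 on RV Mg 3 h arrays (mean -2.26 ± 0.32, SD, n = 3) and -2.14, -2.54 and 0.08 on RV Mg 12 h arrays (-1.54 ± 1.41, n = 3). In pooled tissue, fewer cells that express a gene and less RNA per cell cannot be told apart. Replicate 3 of the 12 h group stood apart, with equal signal in both channels. Levels below are log2 signals of 1 channel minus the 75th percentile of that array and channel. In Cy5, the level of Ehbp1 lay between -2.63 and -2.42 on RV Mg 3 h arrays and between -2.94 and -2.39 at 12 h. In Cy3, it was -0.27, 0.11 and -0.74 at 3 h and -0.25, -0.40 and -3.03 at 12 h. The ratio near 0 of replicate 3 thus came with a low Cy3 level, and its Cy5 level was within the range of the other arrays.

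A low Ehbp1 level also occurred in control samples. In the control channel (Cy3) of RV PBS arrays, Ehbp1 was -0.60, -0.02 and -0.54 at 3 h and -0.27, -2.75 and -2.58 at 12 h, whereas the HI channel (Cy5) ranged from -1.07 to -0.55 at 3 h and from -1.30 to -0.18 at 12 h. On Mg arrays the level lay between -3.74 and -1.01 in Cy3 and between -3.29 and -1.29 in Cy5. RV arrays were hybridised on 3 slides, with replicates 2 and 3 of both 12 h groups on slide 9. Both a high and a low Cy3 level occurred on that slide (-0.40 on RV Mg 12 h replicate 2 and -3.03 on replicate 3), and the part of the slide in the level was not tested.

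Outside the RV Mg arrays no difference of Ehbp1 passed the test. HI against control gave -0.17, -0.54 and -0.54 at 3 h (mean -0.42 ± 0.21, n = 3, lower in HI on 3 of 3 arrays, limma adjusted p = 0.052). At 12 h it gave 0.09, 1.44 and 1.67 (mean 1.07 ± 0.86, n = 3, adjusted p = 0.12). The sign was opposite at the 2 times on every array, a pattern whose share over all probes was not counted. The difference of 1.48 between 12 h and 3 h had an adjusted p of 0.17. It was 0.63 between the 2 RV PBS arrays of slide 8, the only slide that held both times. Without replicate 1, the array of slide 8, the 12 h mean was 1.56 (adjusted p = 0.0024), in a fit that called 794 of 18433 probes. After MgSO4 alone, Ehbp1 had mean ratios of 0.08 ± 0.43 after 3 h (n = 4), 0.11 ± 0.56 after 6 h (n = 7) and -0.10 ± 0.30 after 24 h (n = 4). After 12 h the 4 ratios were 0.29, 0.45, 0.46 and 0.44, all above 0, with a mean of 0.41 ± 0.08 and an adjusted p of 0.30 by limma.

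Of the genes that share the EHD and Rab8/Rab10 recycling pathway with Ehbp1, 29 or 30 of 30 were tested in each group. Among them 1 was called outside RV Mg, Itsn1, a scaffold of clathrin-mediated endocytosis, which was higher in HI at 3 h (0.61 ± 0.12, log2 ratio, n = 3, limma adjusted p = 0.020), where 3.79% of all 18921 probes were called. On RV Mg 3 h arrays 1 gene of the list was called, higher in Cy5, where 7.62% of all probes were called. Median ratios of the list lay between -0.09 and 0.15 over the 8 groups. The genes whose ratios followed Ehbp1 most closely over the 31 arrays were Socs2 (suppressor of cytokine signalling 2, r = 0.92), Kitl (the ligand of the Kit receptor, r = 0.91) and Rin2 (a Rab5 exchange factor, r = 0.89), of 14062 genes compared. Over the 25 arrays outside RV Mg these correlations were 0.76, 0.75 and 0.75. Arrays of a group share slides, and these values are descriptions.

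Rprd1b has 2 probes, A_52_P349298 and A_51_P229633, which were above background in both channels on all 31 arrays and differed from each other. The brighter, A_52_P349298, had ratios of 2.04, 1.57 and 1.04 on RV Mg 3 h arrays (mean 1.55 ± 0.50, n = 3) and of 0.97, 0.87 and -0.11 on RV Mg 12 h arrays (0.58 ± 0.60, n = 3). A_51_P229633 had -0.74, -0.50 and -0.39 at 3 h and -0.72, -0.93 and -0.49 at 12 h. The probes thus had opposite signs on 5 of 6 arrays, and replicate 3 at 12 h, which lacked the Ehbp1 difference, also lacked that of A_52_P349298. The Cy5 level of A_52_P349298 was even over the RV Mg arrays (0.41 to 0.68 at 3 h and 0.18 to 0.30 at 12 h), while its Cy3 level was -1.37, -1.16 and -0.55 at 3 h and -0.75, -0.70 and 0.41 at 12 h.

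**Figure D2:**
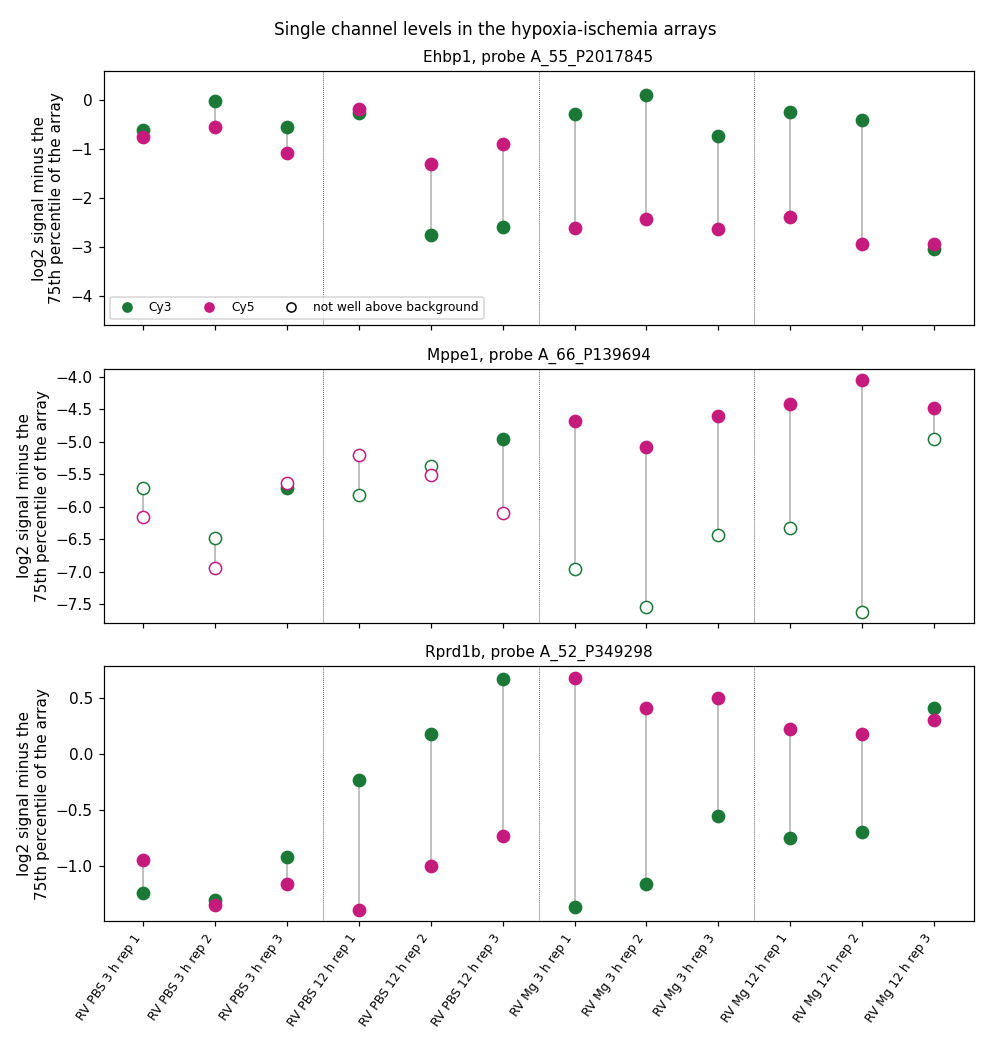
Single channel levels (vertical axes, log2 signal minus the 75th percentile of the array) of Ehbp1, Mppe1 and Rprd1b on the 12 RV arrays (horizontal axis), with Cy3 in green, Cy5 in magenta and open points where a channel was not well above background. Within the 12 h groups the Ehbp1 Cy3 level was either between -0.40 and -0.25 or between -3.03 and -2.58, and the Rprd1b Cy3 level was highest on the arrays where Ehbp1 was lowest.

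HI against control gave A_52_P349298 ratios of 0.28, -0.05 and -0.24 at 3 h (mean -0.0047 ± 0.26, n = 3, limma adjusted p = 0.98). At 12 h the ratios were -1.16, -1.20 and -1.41, lower in HI on 3 of 3 arrays (mean -1.26 ± 0.13, n = 3, adjusted p = 0.074). This mean passed the test without replicate 1 (-1.31, adjusted p = 0.0056) or replicate 3 (-1.18, adjusted p = 0.0029), and without background subtraction (-0.98, adjusted p = 0.032). Over all probes, 794 of 18433, 3330 of 18313 and 547 of 18930 were called in these settings, against 2 of 18930 in the main fit. The difference of -1.25 between the times had an adjusted p of 0.093 and was -0.92 on slide 8. Levels in HI ranged from -1.35 to -0.95 at 3 h and from -1.39 to -0.73 at 12 h. Control levels ranged from -1.31 to -0.92 at 3 h and from -0.23 to 0.67 at 12 h. The dimmer probe, A_51_P229633, was lower in HI at 3 h (-0.17, -0.27 and -0.19, adjusted p = 0.083) and higher at 12 h (0.50, 0.34 and 0.04, adjusted p = 0.24), without passing the test at either time.

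After MgSO4 alone, A_52_P349298 had ratios of 0.96, -0.10, 0.85 and 0.88 at 3 h (mean 0.65 ± 0.50, n = 4, adjusted p = 0.48). At 6 h all 7 ratios were above 0, with a lowest of 0.33, a median of 0.79 and a highest of 1.30 (mean 0.79 ± 0.38, adjusted p = 0.11 by limma). At 12 h and 24 h the means were 0.04 ± 0.56 and 0.24 ± 0.18 (n = 4 each, adjusted p = 0.93 and 0.45). The 6 h group lay above 0 on every array, with an unadjusted p of 0.00028 by limma, and missed the threshold after adjustment. Without replicates 3 and 7, the arrays that correlated negatively with others, the 6 h mean was 0.92 (adjusted p = 0.015), and with their ratios turned it was 0.52 (adjusted p = 0.13), both alternatives chosen after seeing the data. Over all probes these alternatives called 1531 and 1493, against 5 in the main fit.

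Of the regulators of the RNA polymerase II tail, 16 to 19 of 21 were tested and limma called none in any of the 8 groups, with 18.1% of the tests outside RV Mg at an unadjusted p under 0.05, against 19.0% over all probes in these 6 groups. Their medians lay between -0.05 and 0.25. The genes closest to A_52_P349298 over 31 arrays were Lin7b (a scaffold protein of cell junctions and synapses, r = 0.90), Polr2h (a subunit shared by the nuclear RNA polymerases, r = 0.88) and Mgst3 (a microsomal glutathione transferase, r = 0.85). Over the 25 arrays outside RV Mg the correlations were 0.89, 0.88 and 0.90. In RV Mg 3 h the mean ratios of these genes were 0.28, 0.25 and 0.05, well below that of Rprd1b.

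Over the 12 RV arrays, the Ehbp1 ratio ran against that of Rprd1b A_52_P349298 (r = -0.93) and with that of A_51_P229633 (r = 0.81). Outside RV Mg (25 arrays) the correlations were -0.37 and 0.56. Both Rprd1b probes ran against each other over the 12 RV arrays (r = -0.84) and, more loosely, over the 25 arrays (r = -0.34). On RV PBS 3 h replicates 2 and 3 the ratios of Ehbp1 and A_52_P349298 were both below 0. Of the 12 RV arrays 6 chose the genes, all share 3 slides and 1 scan day, and no p-value is attached.

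**Figure D3:**
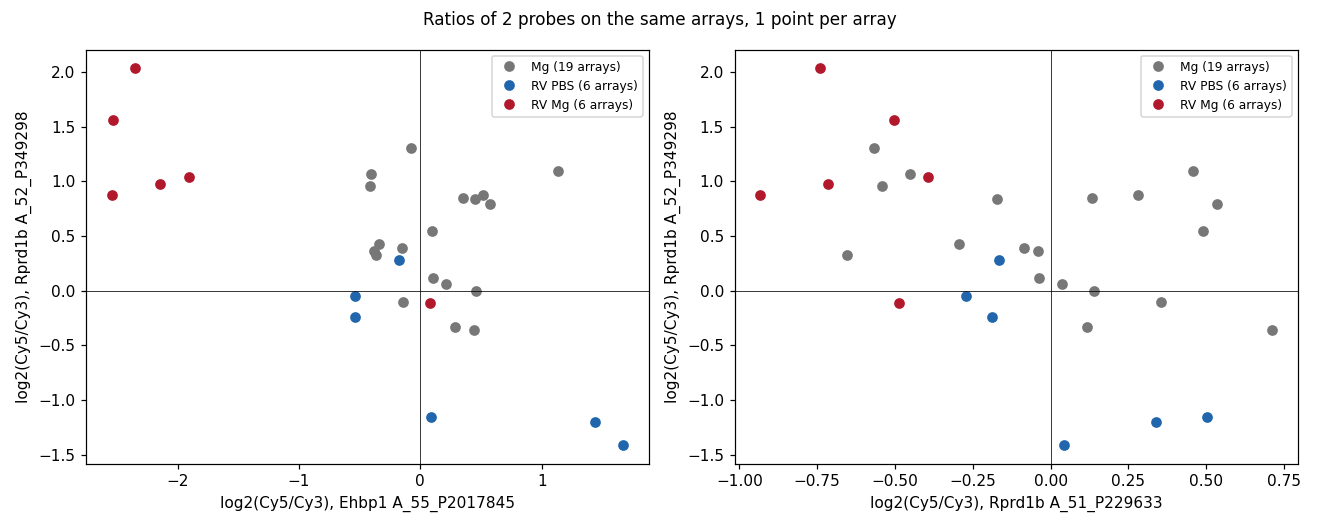
Log2(Cy5/Cy3) of Rprd1b probe A_52_P349298 (vertical axes) against Ehbp1 (left) and against the other Rprd1b probe (right), 1 point for each of 31 arrays, by experiment. RV points run from the upper left to the lower right in both panels, and Mg points are more scattered.

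Mppe1 is represented by probe A_66_P139694, which was dim. Its ratios were 2.26, 2.46 and 1.82 on RV Mg 3 h arrays (mean 2.18 ± 0.33, n = 3) and 1.91, 3.56 and 0.47 on RV Mg 12 h arrays (1.98 ± 1.55, n = 3). The Cy3 spot was not well above background on any of these 6 arrays, whereas the Cy5 spot was on all 6. Set against the dimmest signal that counts as above background, Cy5 was at least 1.79-fold higher at 3 h and at least 1.90-fold higher at 12 h. These bounds compare the channels of the same arrays and remain subject to dye bias. Again replicate 3 at 12 h had the smallest ratio, with the highest Cy3 level of the 6 arrays (-4.96, against -7.62 to -6.32 on the others) and a Cy5 level of -4.48 within the range of the others.

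Mppe1 did not differ between HI and control in a way that could be tested. The ratios were -0.47, -0.47 and 0.06 at 3 h and 0.63, -0.17 and -1.15 at 12 h, with Cy5 not above background on any of the 6 arrays and Cy3 on 2 of them. On Mg arrays the probe was brighter, with Cy3 above background on 15 and Cy5 on 18 of 19 arrays. The mean ratios there were 0.07 ± 0.41 (3 h, n = 4), 0.17 ± 0.55 (6 h, n = 7), -0.25 ± 0.25 (12 h, n = 4) and 0.08 ± 0.59 (24 h, n = 4), with adjusted p-values of 0.90, 0.72, 0.37 and 0.90 by limma. After 12 h all 4 ratios were below 0 (-0.21, -0.02, -0.16 and -0.61).

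Of the genes that build, attach and remodel GPI anchors, 26 of 28 were tested in each group. None was called by limma outside RV Mg (19.9% of 156 tests had an unadjusted p under 0.05, against 19.0% over all probes), and medians lay between -0.10 and 0.13. On RV Mg 3 h arrays 1 of them was called, higher in Cy5, where 7.62% of all probes were called. Mppe1 ratios were followed most closely by Syndig1 (a partner of AMPA receptors at synapses, r = 0.95), Ahcy (S-adenosylhomocysteine hydrolase, r = 0.92) and Sgsm3 (r = 0.92) over 31 arrays, with r = 0.80, 0.67 and 0.62 over the 25 arrays outside RV Mg. Ehbp1 and Mppe1 ran in opposite directions over the 12 RV arrays (r = -0.89) and less so over the 25 arrays (r = -0.46).

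Cela2a, by its single probe A_51_P504538, was higher in Cy5 in every experiment. On RV Mg arrays its ratios were 2.08, 3.31 and 1.68 at 3 h (mean 2.36 ± 0.85, n = 3) and -0.28, 2.75 and 2.16 at 12 h (1.55 ± 1.61, n = 3). HI against control gave 2.33, 2.18 and 2.95 at 3 h (2.49 ± 0.41, n = 3, too dim to be tested) and 1.66, 2.43 and 3.68 at 12 h (2.59 ± 1.02, n = 3, limma adjusted p = 0.074). MgSO4 alone gave 1.33, 1.88, -0.14 and 0.27 after 3 h (0.84 ± 0.93, n = 4, too dim to be tested). After 6 h the lowest ratio was 0.57, the median 2.64 and the highest 4.16 (2.58 ± 1.14, n = 7, adjusted p = 0.098). After 12 h the ratios were 3.95, 2.16, 2.51 and 3.55 (3.04 ± 0.84, n = 4, adjusted p = 0.16). After 24 h they were 4.79, 3.56, 0.81 and 3.78 (3.23 ± 1.70, n = 4, adjusted p = 0.24). Outside RV Mg, Cy5 was higher on 24 of 25 arrays, yet no group passed the test. With 1 array left out Cela2a passed in 3 groups. The mean was 3.05 (adjusted p = 9.5e-04) in RV PBS 12 h without replicate 1 and 2.91 (adjusted p = 0.018) in Mg 6 h without replicate 7. In Mg 24 h without replicate 3 it was 4.04 (adjusted p = 0.046). Over all probes these fits called 794 of 18433, 14 of 18247 and 3 of 18367. With every array kept, one limma fit over all groups also called Cela2a in these 3 groups (adjusted p = 0.0079, 2.2e-04 and 0.0011). That fit called 1092, 251 and 39 of all probes there. Without background subtraction the means of the 4 tested groups were 0.48, 0.39, 0.51 and 0.63 for RV PBS 12 h, Mg 6 h, Mg 12 h and Mg 24 h.

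The Cy3 signal of Cela2a was well above background on 1 of 31 arrays and the Cy5 signal on 21. At 12 h and 24 h after MgSO4, Cy5 was at least 2.03-fold higher at both times, with Cy5 above background on 4 and on 3 of 4 arrays. On RV Mg 3 h arrays it was at least 1.34-fold higher, with 2 of 3 arrays above background, and at 12 h no bound above 1 could be given. Raw spots show how small the signals were. On RV Mg 3 h arrays the median Cy3 spot of Cela2a read 26.5 to 28 units over a local background of 20 to 25, and its Cy5 spot 67 to 96 over 47 to 52. The ratios of the 4 MgSO4 time points did not differ by the F test (adjusted p = 0.93, unadjusted p = 0.024).

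Other pancreatic enzymes did not share this pattern. Of 25 genes listed, 22 had a probe, 10 to 13 were tested in each group, and medians lay between -0.18 and 0.10. Outside RV Mg 1 gene was called, Cpa1 (carboxypeptidase A1), which was lower in HI at 3 h (-0.68 ± 0.38, n = 3, limma adjusted p = 0.047), where 3.79% of all probes were called. On RV Mg 3 h arrays 1 gene of the list was called, higher in Cy3, where 7.62% of all probes were called. For none of the 22 genes did the number of arrays above background in Cy5 exceed that in Cy3 by more than 5, whereas Cela2a had 21 against 1. Summed levels of the list lay between 1.39 and 3.37 in Cy3 and between 1.22 and 3.59 in Cy5. The gene most like Cela2a over 31 arrays was Vmn1r236, a vomeronasal receptor gene (r = 0.72, and 0.77 over the 25 arrays), whose own mean ratios in RV Mg were 2.12 at 3 h and 2.67 at 12 h. Cdc16 and Ugp2 followed with r = 0.67 each.

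Gm20877 has 5 probes, and only A_66_P109888 carried the difference. On RV Mg arrays it gave 2.70, 2.06 and 1.64 at 3 h (mean 2.13 ± 0.53, n = 3, at least 1.35-fold) and 1.78, 2.73 and 2.24 at 12 h (2.25 ± 0.48, n = 3, at least 1.18-fold). Its Cy5 spot was above background on 2 of 3 arrays at each time. The other 4 probes had neither channel above background on any RV Mg array, and the brightest of them over all arrays, A_55_P2023336, had means of -0.08 ± 0.30 and -0.74 ± 0.44.

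Like Cela2a, A_66_P109888 was higher in Cy5 in the other experiments too. HI against control gave 2.01, 2.38 and 3.74 at 3 h (mean 2.71 ± 0.91, n = 3, limma adjusted p = 0.021), and this was the only member probe called. Cy5 was at least 1.62-fold higher there, with Cy5 above background on 2 of 3 arrays. Leaving out 1 array, the call was lost without replicate 1 (3.06, adjusted p = 0.052), and without replicate 2 or 3 the probe was too dim to be tested. It was also lost without the filter on dim probes (adjusted p = 0.071), with normexp, where the mean of 0.36 was under the fold threshold, and by the methods' t-test after adjustment. At 12 h the ratios were 1.59, 2.89 and 3.12 (2.53 ± 0.83, n = 3, adjusted p = 0.074). MgSO4 alone gave means of 0.84 ± 0.67 (3 h, n = 4, adjusted p = 0.48), 2.41 ± 1.58 (6 h, n = 7, adjusted p = 0.14), 1.36 ± 1.05 (12 h, n = 4, adjusted p = 0.30) and 0.93 ± 0.99 (24 h, n = 4, adjusted p = 0.41). After 6 h, where Cy3 was not above background on any array, the ratios ranged from -0.32 to 4.06 with a median of 2.66. Cy5 was at least 2.38-fold higher, with Cy5 above background on 6 of 7 arrays. Without replicates 3 and 7 of that group the mean was 3.15 (adjusted p = 0.0069), and with their ratios turned it was 2.09 (adjusted p = 0.036). These 2 alternatives called 1531 and 1493 of all probes, against 5 in the main fit. Cy5 was higher on 22 of the 25 arrays outside RV Mg.

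The brightest Gm20877 probe, A_55_P2023336, had means below 0 after MgSO4, none past the test: -0.34 ± 0.87 (3 h, n = 4), -0.73 ± 1.19 (6 h, n = 7), -0.90 ± 0.63 (12 h, n = 4) and -0.18 ± 0.53 (24 h, n = 4), with adjusted p-values of 0.75, 0.43, 0.30 and 0.75 by limma. The genes most like A_66_P109888 over 31 arrays were Sh3bp1 (r = 0.70), Cnep1r1 (r = 0.68) and Rdh9 (r = 0.67), and those most like A_55_P2023336 were Ormdl1 (r = 0.75), Dimt1 (r = 0.74) and Fbxo39 (r = 0.73). Ratios of the 4 probes other than A_66_P109888 correlated with each other at r = 0.60 to 0.81 over 31 arrays and with A_66_P109888 at 0.44 to 0.58. Markers of the sex of a pool (Xist, Ddx3y, Eif2s3y, Kdm5d and Uty) were not called by limma in any group (27.3% of 22 tests outside RV Mg had an unadjusted p under 0.05, against 19.0% over all probes). Over the 31 arrays the ratios of the Y chromosome genes ranged from -1.12 to 0.62 (Ddx3y), from -0.74 to 0.91 (Eif2s3y), from -1.36 to 0.93 (Kdm5d) and from -1.47 to 1.27 (Uty). Xist, which the inactive X chromosome expresses, ranged from -0.60 to 1.47 and was above 0 on all 7 Mg 6 h arrays (0.44 to 1.47) and all 4 Mg 24 h arrays (0.37 to 1.02). The part of sex in the Gm20877 ratios was not tested.

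Counted by their brightest probes, 0 of 2 members tested were called in RV PBS 3 h, where 3.79% of probes were (Gm20877 would count by its other probe), and 0 of 3 in RV PBS 12 h, where 0.0106% of probes were. On Mg arrays 0 of 4 were called at 3 h (0% of all probes), 0 of 5 at 6 h (0.0283%), 0 of 5 at 12 h (0%) and 0 of 5 at 24 h (0.00555%). With 2 to 5 members tested in a group, a count of 0 is near the background in each. At an unadjusted p under 0.05, limma gave 1, 3, 1, 2, 3 and 1 members in that order, where 36.1%, 27.5%, 9.02%, 13.2%, 15.7% and 11.1% of all probes passed, and the methods' t-test gave 0, 2, 0, 2, 1 and 1 members, none of them after Benjamini-Hochberg adjustment. Between the 2 times of RV PBS and between the 4 times of Mg, 0% of probes differed, and 0 of 3 and 0 of 5 members tested did. In each comparison 2 members had an unadjusted p under 0.05 by limma, as did 3299 of 19325 and 815 of 19308 probes.

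Genes next to the members on the chromosome, 3 with a probe on either side, were examined as well. Of these 30 neighbours, 1 had a mean ratio of 1 or more in size in RV Mg, Rbmy next to Gm20877 (1.17 at 3 h, too dim to be tested). Next to Ehbp1 the largest was Otx1 (0.96 at 3 h, too dim to be tested), next to Rprd1b Lbp (0.68 at 12 h), next to Mppe1 Chmp1b (0.39 at 3 h) and next to Cela2a Agmat (-0.57 at 3 h). The 12 h mean of Lbp was above that of Rprd1b probe A_52_P349298 (0.58), with the same sign. On RV Mg 3 h arrays Lbp (0.63) was called by limma, where 7.62% of all probes were called. Of 135 tests on neighbours outside RV Mg, 1 was called, Tubb6 (1.02 ± 0.20 in HI at 3 h, n = 3, limma adjusted p = 0.013), in the group where 3.79% of all probes were called.

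The treatment of the background separated the members into those with bright and those with dim spots. Without background subtraction, the mean ratio on RV Mg 3 h arrays stayed at -1.87 for Ehbp1 (from -2.26) and at 1.41 for Rprd1b A_52_P349298 (from 1.55). For the dim probes it went from 2.18 to 0.48 (Mppe1), from 2.36 to 0.46 (Cela2a) and from 2.13 to 0.45 (Gm20877 A_66_P109888). The sign held for all 5, but only Ehbp1 and Rprd1b kept a mean of 1 or more in size. The raw spots of Ehbp1 on these arrays read 188 to 426 units in Cy3 and 199.5 to 210 in Cy5, and those of Rprd1b 177.5 to 203 in Cy3 and 1080.5 to 1305 in Cy5. Those of Mppe1 read 28 to 30 over a background of 20 to 23 in Cy3 and 82 to 91 over 46 to 49 in Cy5.

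**Figure D4:**
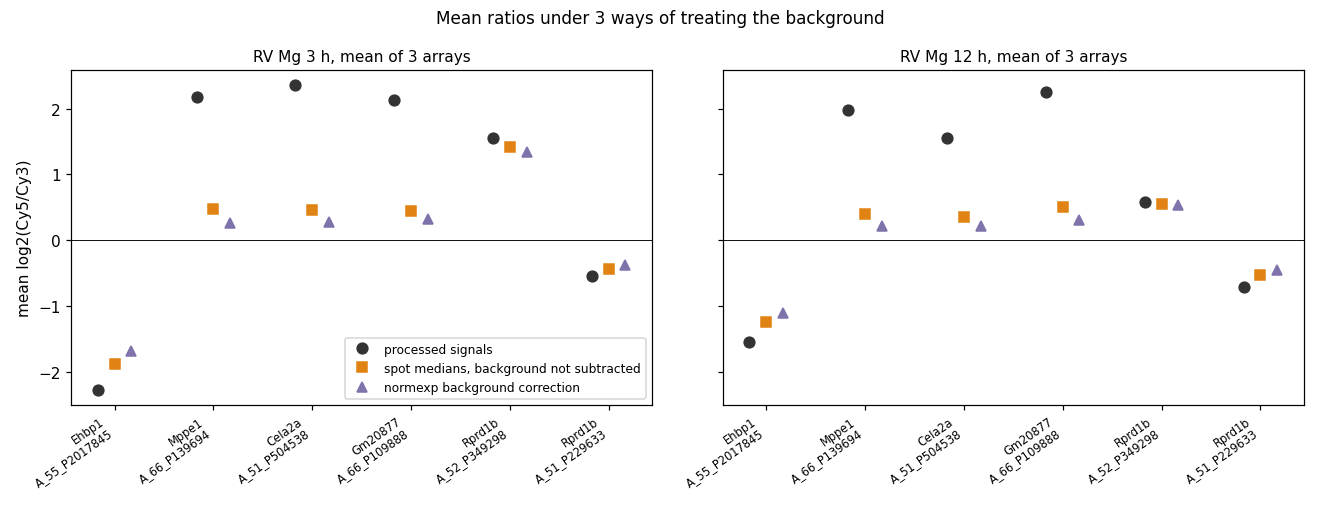
Mean log2(Cy5/Cy3) (vertical axis) of the member probes on RV Mg 3 h and 12 h arrays under the processed signals, the median signals without background subtraction and the normexp correction. Ehbp1 and Rprd1b kept most of their ratio, and Mppe1, Cela2a and Gm20877 fell to between 0.21 and 0.50.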

How the data were processed

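Scans were read by the authors in Feature Extraction (10.5.1.1 per the processing notes), and they deposited per spot the processed intensities of both channels (background-subtracted, dye-normalised by LOWESS) and the median spot and background intensities. The deposited value table holds the log10 ratio of Cy5 to Cy3, whose direction, scale and lack of further centring were settled against the scanner files: medians were 0 on every array, 13.7% to 27.5% of spots, none above background, were set to 0, and the others differed by at most 0.00797.

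From the processed intensities the log2 ratio was computed, spots with outlier flags (0.35% to 1.02%) were left out and spots of a probe averaged. RefSeq accessions gave 1 symbol for 27427 of 39429 probes (69.6%), and 12002 had none. Probes with a symbol whose Cy3 or Cy5 spot was well above background on 66.7% or more of the arrays of a group were tested with limma 3.58.1 (R 4.3.3), each group in its own fit against 0 as the methods test each time point, with Benjamini-Hochberg adjustment over all tested probes; a probe is called if its adjusted p is under 0.05 and it changed at least 1.5-fold. As the labels do not tie replicates to separate litters or pools, p-values measure only the spread between these arrays. Precision is limited by how few arrays a group has. The fit was tested on simulated data. Lower bounds set the bright channel against, per array, the higher of the dim probe's signal and the lowest signal well above background. In counts, a gene is represented by its brightest probe. Named genes are the members, the 3 most correlated genes and 3 neighbours on either side of each, the genes next in rank, 4 injury genes and the pathway and marker lists; genes of higher rank were named after their values were seen. The members and lists were chosen with earlier results of these data known. All columns of the value table were mapped (0 left out). Alternatives are given in the closing section.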

Additional observations from a re-analysis of the deposited data

Results flagged for a closer look

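Within groups of 4 to 7 arrays, 40 sets of ratios were examined for a single array far from the rest and 2 were found, where chance gives about 5%. Rprd1b probe A_52_P349298 was -0.0995 on Mg 3 h replicate 2, while the other 3 arrays lay between 0.85 and 0.96. Ehbp1 was 0.287 on Mg 12 h replicate 1, while the others lay between 0.44 and 0.46.

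Of 80 pairs of group and probe compared, 3 had ratios of one sign on every array of the first group and of the opposite sign on every array of the second, all between RV PBS 3 h and 12 h. These groups hold 3 arrays each, fewer than the Mg groups that make up most of the pairs. The share over all probes was not counted, so nothing is read from the number found. For Ehbp1 the 12 h mean exceeded the 3 h mean by 1.48 (limma adjusted p = 0.17). For Rprd1b probe A_51_P229633 it exceeded it by 0.50 (adjusted p = 0.19). For Gm20877 probe A_55_P2020101 the difference was -0.65, at signals below background on all 6 arrays, and it was not tested.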

How the results depend on the processing

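Counts are of members called by their brightest probe, 0 in each tested comparison, and the cause of each change was not tested. In RV PBS 3 h, counting any probe gave 1 (Gm20877). In RV PBS 12 h, the count was 1 without background subtraction and with normexp (Rprd1b, adjusted p = 0.032 and 0.043), 3 in one fit over all groups, 2 with slide and 1 with scan day as a random block, 2 by the methods' unadjusted t-test, and 0 to 3 when leaving out 1 array: without replicate 1 Ehbp1, Cela2a and Rprd1b were called, and without replicate 3 Rprd1b. In Mg 6 h it was 1 without background subtraction (Rprd1b), 2 in one fit, with slide, with scan day, by the unadjusted t-test and without replicates 3 and 7 (Cela2a 3.08 and Rprd1b 0.92, chosen after seeing the data), 0 with the ratios of these 2 arrays turned, and 0 to 1 when leaving out 1 array (Cela2a without replicate 7). In Mg 12 h and in Mg 24 h it was 1 (Cela2a) in one fit, with slide, with scan day and by the unadjusted t-test, and at 24 h 0 to 1 when leaving out 1 array (Cela2a without replicate 3, 4.04, adjusted p = 0.046). Mg 3 h stayed at 0 under all 17 alternatives. Between RV PBS times the count was 1 without background subtraction (Rprd1b, adjusted p = 0.034). With the replicate number as a block it was 0 there and between the Mg times. Same-numbered RV PBS arrays did not deviate together (r = -0.27, -0.03 and -0.25), nor did Mg arrays throughout (-0.28 to 0.65). Of RV Mg 3 h members with one sign and a mean of 1 or more, 4 by the processed signals, 2 remained without background subtraction and 2 with normexp (Ehbp1 and Rprd1b), and 4 when leaving out any array. At 12 h 1 became 0 without background subtraction, 2 with any probe, and 1 to 2 when leaving out 1 array (Cela2a joined without replicate 1, and Ehbp1, -2.34, without replicate 3). All-probe counts moved more. In RV PBS 12 h they went from 2 to 547 without background subtraction, 374 with normexp and 1092 in one fit. They were 882 with slide, 402 with scan day, 933 by the unadjusted t-test, and 794, 18 and 3330 without replicates 1, 2 and 3. In Mg 6 h they went from 5 to 26 without background subtraction, 251 in one fit, 195 with slide and 175 with scan day. They were 192 by the unadjusted t-test, 14 without replicate 7, 1531 without replicates 3 and 7 and 1493 with these turned. In one fit, with slide, with scan day and by the unadjusted t-test, Mg 12 h went from 0 to 199, 185, 145 and 214. Mg 24 h went from 1 to 39, 39, 37 and 74. Of 781 single mean ratios recomputed, 0 called ones changed sign, 37 uncalled ones did, 30 moved by more than the SD, 14 lost and 50 gained a call. Signal over background limits Mppe1, Cela2a and Gm20877 on RV Mg arrays, where their Cy3 spots were not well above background.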
